A study of Mus musculus with 32 samples.

Results

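The liver transcriptomes compared here come from 16 male wild-type C57BL/6 mice kept on a steady light schedule, 8 of them 30 weeks old and 8 of them 12 weeks old. They were chosen by their sample titles, which mark the steady schedule, and make up 16 of the 32 arrays of the series. The other 16 mice were of the same sex, strain, genotype and ages, but from 4 weeks of age were shifted back and forth between 2 rooms, 8 h apart in their lighting (chronic jet lag). All mice were singly housed. The steady mice had 12 h of light and 12 h of darkness each day. Zeitgeber time (ZT) counts hours from lights on. At each age 2 mice were killed at ZT2, 3 at ZT10 and 3 at ZT18, and the snap-frozen liver of each gave total RNA for a 1-colour array of its own. Each mouse was sampled once, so the 2 ages are different animals. The labels do not say whether they were litter mates. The p values rest on the spread between mice of the same group over all 32 arrays, the jet-lagged mice included. The whole liver was used, so fewer cells of a type and less RNA per cell cannot be told apart. A 12-week mouse is a young adult and a 30-week mouse is a mature adult.

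The adult male liver takes its gene programme from several inputs. Pulses of growth hormone, acting through STAT5, set the genes that differ between male and female liver, among them many cytochrome P450 and UDP-glucuronosyltransferase genes. Hepatocytes also make hepcidin, the hormone that lowers iron release into blood by removing the iron exporter ferroportin from cell surfaces. Hepcidin is switched on by BMP6 from the sinusoidal endothelium through SMAD proteins, and by inflammation through STAT3. The mouse has a second hepcidin gene, Hamp2, beside Hamp, and its product is not known to regulate iron as Hamp does.

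Levels are given as log2 of the signal relative to the 75th percentile of the same array, so a difference of 1 is a 2-fold change. The 30-week minus 12-week difference was averaged over the 3 times of day. A gene was called when its limma p, adjusted by Benjamini-Hochberg over 23110 genes, was under 0.05. By that rule 209 genes were called (0.904% of those tested), 135 higher at 30 weeks (0.584%) and 74 lower (0.32%). The median difference over all genes was 0.01, on values scaled array by array. Of the 209 genes, 118 have a gene symbol, and 43 were well above background in no mouse of one age, so that their size is only bounded. Among the others 40 differed by at least 2-fold, 34 higher and 6 lower. In all, 143 of the 209 genes differed in the same direction on all 8 slides, each of which carried 1 steady mouse of each age. The 2 steady mice of a slide were taken at different times of day. The time-of-day means were therefore removed first, and this is not a direct comparison within slides. At an unadjusted p under 0.05 there were 2270 genes (9.82%). The levels of 34 genes did not overlap between the 8 and 8 mice (0.147%), 28 higher (0.121%) and 6 lower (0.026%) at 30 weeks, and 33 of these were among the calls. Leaving out 1 mouse at a time gave 131 to 190 calls, with 131 without mouse 2 of ZT2 at 30 weeks and 136 without mouse 1 of ZT2 at 12 weeks.

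The hepcidin pair lay side by side and moved in opposite directions. Its promoters are shown because the 2 genes, neighbours on chromosome 7 with near-identical upstream sequence, differ within one known control element. The sequences are from RefSeq (build GRCm38.p6), cover the 150 bases before the start of transcription, and are written 5′ to 3′ on the gene's own strand. Hamp lies at chr7:30944030-30944179 and Hamp2 at chr7:30924182-30924331, both on the minus strand. Capitals mark GGCGCC, the core of the BMP-responsive element of the hepcidin promoter, with the bases of Hamp2 aligned to it, and the STAT motif TTCNNNGAA.
Hamp: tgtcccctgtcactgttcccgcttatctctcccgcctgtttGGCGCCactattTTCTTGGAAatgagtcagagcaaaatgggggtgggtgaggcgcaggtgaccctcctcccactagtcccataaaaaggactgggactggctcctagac
Hamp2: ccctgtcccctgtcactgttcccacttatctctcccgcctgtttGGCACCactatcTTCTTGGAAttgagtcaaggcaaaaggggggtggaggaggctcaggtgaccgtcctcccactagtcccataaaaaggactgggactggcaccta

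In a global alignment 135 of 147 aligned bases (91.8%) were identical. Counting from 1 at the 5′ end of GGCGCC, the aligned bases of Hamp2 carry G4A. Both promoters hold the STAT motif, 97 to 89 bases before the start in Hamp and 94 to 86 in Hamp2. Searched on both strands, GGCGCC occurs in 7.01% of all 32851 RefSeq promoter entries over the same 150 bases, and TTCNNNGAA in 4.09%. These matches describe letters in this window and say nothing of whether a factor binds there.

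Hamp, which encodes hepcidin, ran from 6.90 to 8.25 with a median of 7.62 at 12 weeks, and from 7.96 to 8.44 with a median of 8.23 at 30 weeks. Only 1 mouse of the 12-week group, taken at ZT18, lay within the 30-week range. The difference was 0.67 ± 0.11 (SE, n = 8 and 8, limma adjusted p = 0.00168), which is 1.59-fold. Hamp2 went the other way, from a range of 3.56 to 4.87 (median 4.06) at 12 weeks to a range of 1.00 to 3.32 (median 2.29) at 30 weeks, and the groups did not overlap. It fell by 1.78 ± 0.32 (limma adjusted p = 0.00393), and was 3.44-fold lower. Both differences had the same direction on 8 of 8 slides, with the time-of-day means removed, and at every time of day. Each gene was read by 1 probe, and the extent to which either probe binds the other transcript was not tested.

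Bmp6, the ligand that induces hepcidin, had a median of -1.60 at 12 weeks (range -2.32 to -1.22) and of -1.04 at 30 weeks (range -1.53 to -0.68). It rose by 0.53 ± 0.12 (limma adjusted p = 0.0239), on 8 of 8 slides with the time-of-day means removed. The call was lost when any one of 7 of the 16 mice was left out, with an adjusted p of up to 0.124. Among 23 tested genes of the iron and hepcidin list (24 members), Hamp and Bmp6 were called higher and Hamp2 lower, and the list median was -0.01. Over all genes 0.584% were called higher and 0.32% lower. At an unadjusted p under 0.05, 5 (21.7%) of the list were higher and 1 (4.35%) lower, against 5.59% and 4.23% of all genes. Smad6 and Id1, which BMP signalling induces, were 0.31 ± 0.08 and 0.62 ± 0.20 higher without passing the test (limma adjusted p = 0.101 and 0.225). Smad7 of the same list differed by 0.16 ± 0.15 (limma adjusted p = 0.802). In jet-lagged mice Bmp6, Smad6, Id1 and Smad7 differed by 0.50, -0.02, 0.79 and 0.17. Id1 and Smad7 were named after their values were seen.

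**Figure D1:**
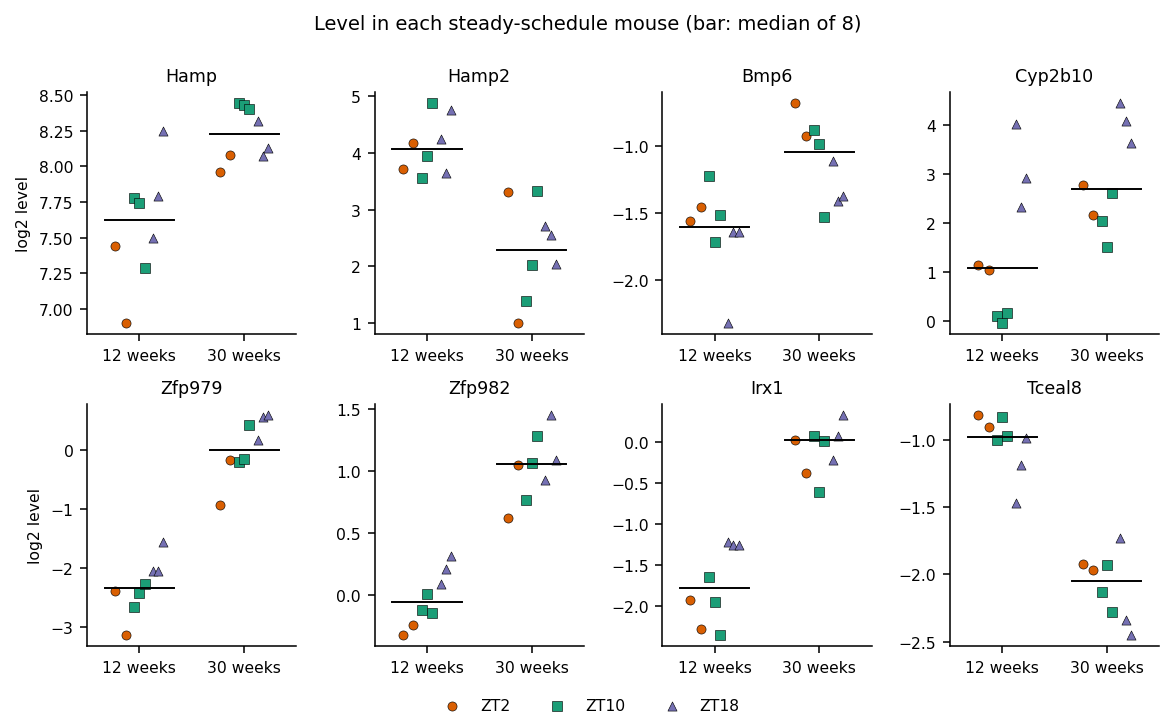
Level of 8 genes in each of the 16 steady-schedule mice (y axis, log2 relative to the array's 75th percentile), by age, with colour and shape for time of day and a bar at the median of 8 mice. Hamp2, Zfp979, Zfp982, Irx1 and Tceal8 do not overlap between ages, whereas the ages overlap for Hamp (1 mouse), Bmp6 and Cyp2b10, which also varies with the time of day.

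Zfp979, a zinc finger gene in a cluster of such genes on chromosome 4, had the largest rise of the 24 leading genes, which are the 12 higher and the 12 lower calls of largest change under the naming rule. Zfp979 ran from -3.14 to -1.57 (median -2.34) at 12 weeks and from -0.93 to 0.58 (median 0.00) at 30 weeks. It rose by 2.32 ± 0.14 (limma adjusted p = 1.72e-09), a 5.01-fold difference that was 2.11, 2.52 and 2.34 at ZT2, ZT10 and ZT18. Its neighbour Zfp982 went from a range of -0.32 to 0.32 to one of 0.62 to 1.45, a rise of 1.06 ± 0.09 (limma adjusted p = 2.63e-07). Neither gene overlapped between ages. In the gene order of GRCm38.p6, Zfp982, Zfp985 and Zfp979 follow one another with no other tested gene between them, and Zfp992 and Zfp984 lie on either side beyond 1 tested gene each, Rex2 and Zfp534. Of these 7 genes 5 were called, all higher, against 0.904% of all genes tested. Rex2 and Zfp534 differed by 0.07 ± 0.13 and 0.31 ± 0.08 and were not called (limma adjusted p = 0.932 and 0.105). Zfp984 rose by 0.60 ± 0.09, Zfp985 by 0.74 ± 0.14 and Zfp992 by 0.46 ± 0.11 (limma adjusted p = 0.000524, 0.00875 and 0.0320). The Zfp985 call was lost without mouse 2 of ZT2 at 30 weeks (adjusted p = 0.071), and the Zfp992 call without any one of 11 mice (up to 0.211). Apart from Zfp982 and Zfp979, the genes of this stretch were named after their values were seen. The ends of the stretch were set by called genes, which raises the share called within it. Zfp600 and Zfp933, the next tested genes beyond its ends, differed by 0.56 ± 0.22 and 0.06 ± 0.11 and were not called (limma adjusted p = 0.354 and 0.935).

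The upstream sequences of the 2 leading members are given to show how much sequence these neighbours share. They cover 150 bases before a RefSeq start (build GRCm38.p6), at chr4:147642509-147642658 on the minus strand for Zfp979 and chr4:147492267-147492416 on the plus strand for Zfp982. Of the starts listed for each gene the best-matching pair was taken, and capitals mark the longest run they share, 42 bases.
Zfp979: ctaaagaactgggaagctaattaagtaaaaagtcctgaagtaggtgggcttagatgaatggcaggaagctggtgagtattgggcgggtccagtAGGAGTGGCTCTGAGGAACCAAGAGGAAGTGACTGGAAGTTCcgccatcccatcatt
Zfp982: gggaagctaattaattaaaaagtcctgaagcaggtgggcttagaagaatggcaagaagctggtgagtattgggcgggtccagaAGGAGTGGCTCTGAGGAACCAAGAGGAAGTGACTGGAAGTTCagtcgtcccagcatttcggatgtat

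The pair was identical at 131 of 140 aligned bases (93.6%). Zfp985 was 91% identical to Zfp979 over 145 aligned bases, and Zfp984 76.5% over 136. No promoter of an uncalled gene of the cluster was compared. Genes of this cluster resemble one another in their transcripts as well, so how the signal divides among the copies is uncertain.

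The other leading higher genes are of diverse function. Irx1, an Iroquois homeobox transcription factor, rose from a median of -1.78 (range -2.35 to -1.21) to 0.03 (range -0.60 to 0.33), by 1.67 ± 0.15 (limma adjusted p = 7.57e-07). Gnai1, an inhibitory G protein alpha subunit, rose by 1.53 ± 0.24 (limma adjusted p = 0.00112), and was well above background in 4 of 8 mice at 12 weeks and 8 of 8 at 30 weeks. Neither gene overlapped between ages. Aatk, a kinase first described in apoptosis, rose by 1.28 ± 0.16. The prolactin family gene Prl2c1 rose by 1.24 ± 0.13 and the protease inhibitor gene Serpine2 by 1.13 ± 0.16 (limma adjusted p = 6.17e-05, 7.08e-06 and 0.000167 for the 3 genes). Rises of 1.25, 1.07 and 1.05 were measured for the glutamate receptor gene Grm8, the oxysterol-binding protein gene Osbpl3 and Cd207 (langerin). These calls were lost without 1 or 2 of the ZT2 mice. Grm8 had an adjusted p of up to 0.0773 (without mouse 2 at 12 weeks or mouse 1 at 30 weeks), Osbpl3 0.0973 (without mouse 2 at 30 weeks) and Cd207 0.0762 (without mouse 1 at 12 weeks or mouse 2 at 30 weeks). Csprs rose by 1.02 ± 0.07 without overlap (limma adjusted p = 1.33e-08), but its 3 probes disagreed, with differences from 0.01 to 1.01, so this value belongs to its brightest probe.

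Further genes without overlap, chosen for naming after their values were seen, changed by less. The WNT-related secreted protein gene Dkk3 rose by 0.79 ± 0.09, the semaphorin co-receptor gene Nrp2 by 0.67 ± 0.08, Plekhb1 by 0.65 ± 0.09 and the aldo-keto reductase gene Akr1b8 by 0.57 ± 0.09 (limma adjusted p = 7.08e-06, 1.8e-05, 0.000132 and 0.000524). Mapt (tau) rose by 0.46 ± 0.07, Hid1 by 0.38 ± 0.07 and the natriuretic peptide receptor gene Npr2 by 0.29 ± 0.04. The Npr2 values had a narrow spread, from 3.30 to 3.60 at 12 weeks and from 3.63 to 3.99 at 30 weeks.

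Among lower genes, Tceal8 went from a median of -0.98 (range -1.47 to -0.82) to -2.05 (range -2.45 to -1.73), and fell by 1.07 ± 0.13 (limma adjusted p = 2.84e-05). Ugt1a10, a UDP-glucuronosyltransferase gene, fell by 1.00 ± 0.14 (limma adjusted p = 0.000139), from a range of 0.20 to 1.15 to one of -0.63 to 0.17. Both were without overlap. Tff3, a trefoil peptide of mucous epithelia, fell by 1.24 ± 0.22 (limma adjusted p = 0.00437), from a median of 2.53 to 1.12, and the carbonic anhydrase gene Car2 by 0.66 ± 0.13 (limma adjusted p = 0.00707). Appl1, an endosomal adaptor, fell by 0.45 ± 0.07 (limma adjusted p = 0.0016). Plcg1, Ajuba and the cell cycle inhibitor gene Cdkn2c fell by 0.60, 0.56 and 0.50 (limma adjusted p = 0.0138, 0.0264 and 0.0276), but these calls were lost without any one of 3, 8 and 6 mice (adjusted p up to 0.0592, 0.146 and 0.196). For Plcg1 those were mouse 1 of ZT2 at 12 weeks and both mice of ZT2 at 30 weeks.

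Genes that differ between the sexes moved in part. Of 26 tested male-biased genes (33 members), 3 were called lower and 1 higher, against 0.32% and 0.584% of all genes. The list median was -0.08 against 0.01 for all genes. At an unadjusted p under 0.05, 5 (19.2%) were lower and 1 (3.85%) higher, against 4.23% and 5.59% of all genes. Ugt2b1 had a median of 4.55 (range 4.23 to 5.15) at 12 weeks and 4.12 (range 3.29 to 4.66) at 30 weeks, and fell by 0.52 ± 0.09 (limma adjusted p = 0.00488). The fatty acid hydroxylase genes Cyp4a12a and Cyp4a12b each fell by 0.53 ± 0.12 (limma adjusted p = 0.0357 and 0.0264). They are near-identical neighbours that one probe may read together, and their calls were lost without any one of 11 and 8 mice (up to 0.187 and 0.167). Susd4, a complement regulator, rose by 0.57 ± 0.12 (limma adjusted p = 0.0142), without overlap. That call was lost without mouse 2 of ZT2 at 12 weeks or at 30 weeks (up to 0.0835). On the female-biased list of 22 tested genes (32 members), 3 (13.6%) were higher and 2 (9.09%) lower at an unadjusted p under 0.05. The shares of all genes were 5.59% and 4.23%. Only 1 gene of that list was called.

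That gene was Cyp2b10, the P450 induced through the nuclear receptor CAR. It varied over the day, and its ages overlapped when the times were pooled. At ZT10 the 3 mice of 12 weeks read 0.09, -0.05 and 0.16 and the 3 of 30 weeks 2.03, 1.51 and 2.62. At ZT2 the values were 1.13 and 1.03 against 2.78 and 2.17. At ZT18 they were 4.01, 2.32 and 2.91 against 4.44, 4.09 and 3.63, where mouse 1 of 12 weeks lay inside the older range. The mean difference was 1.45 ± 0.26 (limma adjusted p = 0.00358), or 2.73-fold. Its relative Cyp2b9 was well above background in 3 of 8 mice at 12 weeks and 7 of 8 at 30 weeks, and was not called (measured difference 0.95 ± 0.27, limma adjusted p = 0.134). Cyp3a16 and Cyp3a41b of the female-biased list went the other way, by -0.27 ± 0.10 and -0.28 ± 0.12, and were not called (limma adjusted p = 0.344 and 0.406). On the list of xenobiotic metabolism, 1 of 31 tested genes (34 members) was called, again Cyp2b10.

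**Figure D2:**
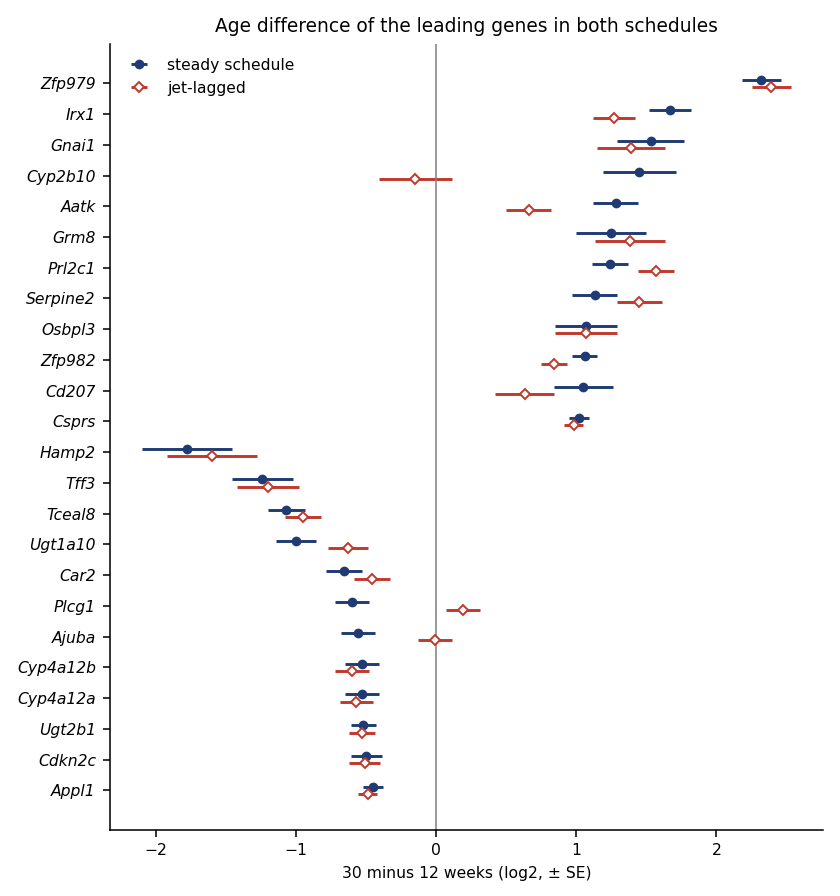
Difference between 30 and 12 weeks (x axis, log2, with SE) for the leading 12 genes in each direction, in steady (filled circles) and jet-lagged mice (open diamonds). For 20 of the 24 genes the jet-lagged mice were called in the same direction, and for Cyp2b10, Cd207, Plcg1 and Ajuba they were not called.

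The jet-lagged mice are a separate set of 16 animals, on the same slides and with a shared error estimate. There 198 of the 209 genes (94.7%) had the same sign, against 51.8% of all genes tested. The 209 include 36 genes well above background in both ZT2 mice of 12 weeks and in no other steady mouse, described with the times of day. Their part in this agreement was not tested. In the jet-lagged mice 1161 genes were called (5.02%), 526 higher (2.28%) and 635 lower (2.75%), and 137 of these were called in steady mice in the same direction, which is 65.6% of the steady calls and 11.8% of the jet-lagged calls. None of the 209 was called in the opposite direction there. For Zfp979 the jet-lagged difference was 2.39 ± 0.14, for Irx1 1.27 ± 0.15, for Hamp2 -1.60 ± 0.32 and for Tceal8 -0.95 ± 0.13. Hamp was 0.28 ± 0.11 higher and not called (limma adjusted p = 0.146), and the test of the difference between schedules was not passed either (-0.39 ± 0.16, limma adjusted p = 0.292).

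Cyp2b10 was -0.15 ± 0.26 in the jet-lagged mice, which differed from the steady mice by -1.60 ± 0.36 without passing the test (limma adjusted p = 0.115). Over all genes the age difference depended on the schedule for 2 genes (0.00865%), and for 3013 at an unadjusted p under 0.05 (13%). Klf16, a zinc finger transcription factor, differed by -0.13 ± 0.09 in steady and 0.64 ± 0.09 in jet-lagged mice (difference 0.76 ± 0.12, limma adjusted p = 0.0491). Abhd18 differed by 0.18 ± 0.07 in steady and -0.44 ± 0.07 in jet-lagged mice (difference -0.61 ± 0.10, limma adjusted p = 0.0491). The 2 probes of Abhd18 gave 0.01 and 0.18 in steady mice. Klf16 and Abhd18 both stand just inside the threshold. The count ranged from 0 to 25 on leaving out 1 steady mouse, with 25 without mouse 1 of ZT18 at 12 weeks.

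Interferon-stimulated genes lay lower at 30 weeks as a group of small differences. None of 38 tested genes (43 members) was called, but 19 (50%) were lower and 1 (2.63%) higher at an unadjusted p under 0.05, against 4.23% and 5.59% of all genes. Their median difference was -0.21, and 35 of 38 were negative. The per-mouse mean of the list ran from 1.62 to 1.83 (median 1.64) at 12 weeks and from 1.05 to 1.76 (median 1.47) at 30 weeks. Ifi44 differed by -0.63 ± 0.16 and Usp18, the protease that removes ISG15 from proteins, by -0.49 ± 0.12 (limma adjusted p = 0.0567 and 0.0581). The RNA-binding antiviral gene Ifit2 differed by -0.54 and the chemokine gene Cxcl10 by -0.49 (limma adjusted p = 0.0959 and 0.219). In jet-lagged mice the list median was -0.16, with 12 members lower and 0 higher at an unadjusted p under 0.05, against 12.6% and 8.14% of all genes there. Members of this list respond to shared signals and are not independent of one another.

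Several proliferation genes were lower at 30 weeks at an unadjusted p under 0.05, with the larger part of the difference at ZT2. Of 41 tested cell cycle genes (48 members) none was called, and the median was -0.23. At an unadjusted p under 0.05, 10 (24.4%) were lower and 0 higher, against 4.23% and 5.59% of all genes. Mki67, the Ki-67 antigen gene, had a median of -1.13 (range -1.41 to -0.54) at 12 weeks and -1.57 (range -1.83 to -1.27) at 30 weeks, a difference of -0.55 ± 0.20 (limma adjusted p = 0.283). By time of day its difference was -1.09 at ZT2, -0.39 at ZT10 and -0.18 at ZT18. The per-mouse mean of the list read -0.69 and -0.68 at 12 weeks against -1.12 and -1.05 at 30 weeks at ZT2, while at ZT10 (-0.91 to -0.58 against -1.05 to -0.81) and ZT18 (-1.26 to -0.95 against -1.29 to -0.99) the ages overlapped. Both ZT2 mice of 12 weeks also stood apart in other genes, described with the times of day, and their part in the list was not tested. Ccna2 and Cenpa, which act in mitosis, differed by -0.56 and -0.29, neither of them called. Nusap1, a spindle gene, was well above background in 6 of 8 mice at 12 weeks and 1 of 8 at 30 weeks, with a measured difference of -0.81 that was not called. In jet-lagged mice the list median was 0.07, with 7 members higher and 1 lower at an unadjusted p under 0.05, and the difference between schedules was not tested for the list. Of the p53 and senescence list 1 of 34 tested genes (35 members) was called, Cdkn2c, which fell. The median of that list was 0.08, with 5 (14.7%) higher and 1 (2.94%) lower at an unadjusted p under 0.05. The p53 targets Gadd45a, Phlda3 and Ccng1 were 0.50, 0.47 and 0.17 higher and not called (limma adjusted p = 0.21, 0.253 and 0.276).

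**Figure D3:**
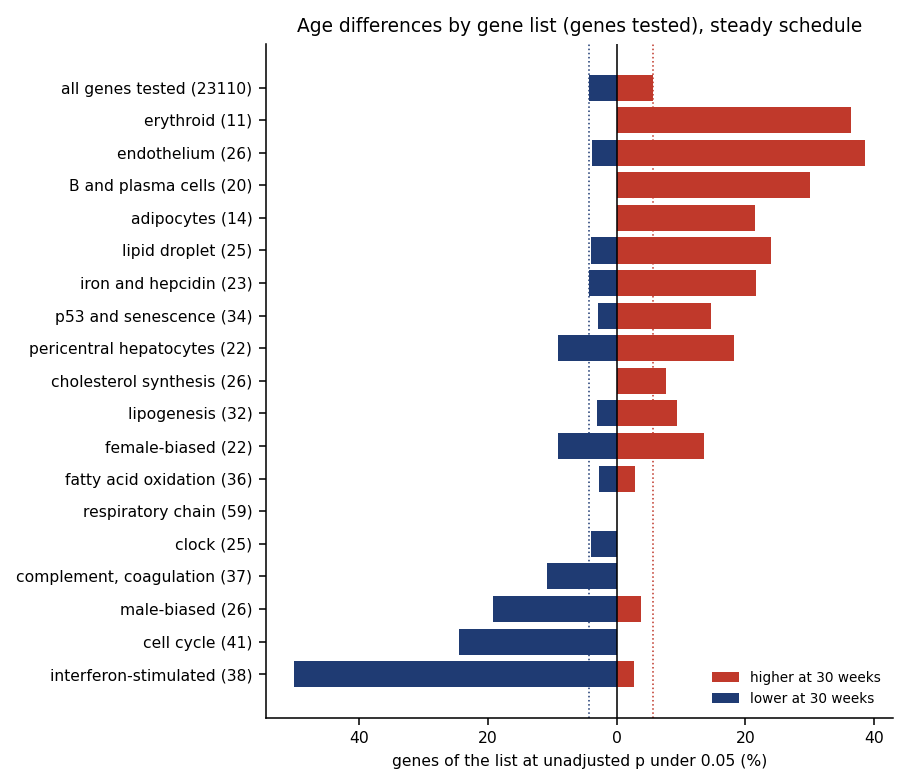
Share of each gene list (number of genes tested in brackets) at an unadjusted p under 0.05, higher at 30 weeks to the right and lower to the left, with dotted lines at the shares over all genes. Interferon-stimulated genes (50% lower) and cell cycle genes (24.4% lower) extend left, and endothelial genes (38.5% higher) and erythroid genes (36.4% higher) extend right.

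Endothelial genes leaned higher. Of 26 tested (26 members) 2 were called, the sinusoidal receptors Clec4g and Fcgr2b, which rose by 0.28 ± 0.06 and 0.27 ± 0.06 (limma adjusted p = 0.0357 and 0.0276). Those calls were lost without any one of 11 and 8 mice (up to 0.219 and 0.196). At an unadjusted p under 0.05, 10 members (38.5%) were higher and 1 (3.85%) lower, against 5.59% and 4.23% of all genes. Their median difference was 0.10. In jet-lagged mice the list median was 0.03, with 2 members higher and 1 lower at an unadjusted p under 0.05. The shares of all genes there were 8.14% and 12.6%. Bmp2 and Rspo3, ligands from the sinusoidal and central vein endothelium, differed by 0.25 and 0.23 (limma adjusted p = 0.0807 and 0.11). Among pericentral hepatocyte genes none of 22 tested (22 members) was called, and the median was 0.03. At an unadjusted p under 0.05, 4 (18.2%) were higher and 2 (9.09%) lower. The 4 of smallest p were higher, and Slc1a2, Slc13a3 and glutamine synthetase (Glul) differed by 0.26, 0.29 and 0.18 (limma adjusted p = 0.0525, 0.108 and 0.141). The fourth, the WNT feedback gene Nkd1, differed by 0.38 in its brighter probe (limma adjusted p = 0.117), and its 2 probes gave -0.16 and 0.39. Lrat, the retinoid-storing enzyme of stellate cells, rose by 0.39 ± 0.09 (limma adjusted p = 0.0471). It was the 1 call among 37 tested stellate and matrix genes (40 members), and was lost without any one of 11 mice (up to 0.263). The median of that list was 0.02. At an unadjusted p under 0.05, 2 (5.41%) of its genes were higher and 3 (8.11%) lower, against 5.59% and 4.23% of all genes.

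Of lipid droplet genes 1 of 25 tested (27 members) was called. Fitm1, which helps to package triglyceride into droplets, rose by 0.70 ± 0.16 (limma adjusted p = 0.0366), from a median of 2.08 to 2.90, and lost its call without any one of 11 mice (up to 0.247). The droplet fusion gene Cidea was 2.25 ± 0.57 higher, from a median of -3.65 (range -4.98 to -0.99) to -1.01 (range -3.57 to 0.42), and did not pass the test (limma adjusted p = 0.0624). Cidea was well above background in 5 of 8 mice at 12 weeks and in 8 of 8 at 30 weeks. Cidec differed by 1.20 ± 0.34 (limma adjusted p = 0.129), and its 2 probes gave 0.44 and 1.18. Adipocyte markers, which include Cidea and Cidec, moved with these genes. With the acinar, muscle and adipocyte levels as covariates the differences were 0.98 for Cidea, 0.33 for Cidec and 0.48 for Fitm1, none of them called (limma adjusted p = 0.66, 0.827 and 0.532). Cidea and Cidec are themselves members of the adipocyte list, so their smaller differences there were in part fixed in advance. The lipase co-activator gene Abhd5 differed by -0.22 (limma adjusted p = 0.0665). At an unadjusted p under 0.05, 6 members (24%) were higher and 1 (4%) lower, against 5.59% and 4.23% of all genes.

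Immune cell genes gave few calls. Of the B and plasma cell list none of 20 tested genes (25 members) was called, with a median of 0.24. At an unadjusted p under 0.05, 6 (30%) were higher and 0 lower, against 5.59% and 4.23% of all genes. The antibody joining chain gene Jchain and the B cell marker genes Ms4a1, Cd79b and Mzb1 differed by 0.82, 0.78, 0.38 and 0.56 (limma adjusted p = 0.0956, 0.105, 0.26 and 0.291). Zap70, a T cell receptor kinase, rose by 0.50 ± 0.10 (limma adjusted p = 0.0113). It was the 1 call among 22 tested T and natural killer cell genes (31 members), and was lost without mouse 2 of ZT2 at 30 weeks (0.0995). The median of that list was 0, with 2 (9.09%) higher and 1 (4.55%) lower at an unadjusted p under 0.05. No gene was called among 27 tested macrophage and 11 neutrophil genes.

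Much of the metabolic programme gave no call between these ages. This held for 32 tested genes of lipogenesis, 26 of cholesterol synthesis, 36 of fatty acid oxidation, 29 of bile acids, 28 of glucose metabolism, 31 of the urea cycle and amino acids, 59 of the respiratory chain and 25 of the clock. It held too for growth hormone signalling (18), fetal liver genes (17), NRF2 targets (32), acute phase (29), heat shock (23), the unfolded protein response (32), ribosome biogenesis (34), complement and coagulation (37) and cholangiocytes (15). Their medians lay between -0.08 and 0.08, and at an unadjusted p under 0.05 the lists held between 0% and 16.7% of their genes, against 9.82% of all genes. A missed threshold does not show that these genes are alike at the 2 ages.

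The age difference was also read at each time of day, where 2 or 3 mice stand on each side. At ZT2 76 genes were called (0.329%), 17 higher (0.0736%) and 59 lower (0.255%), and 42 of the 59 were genes well above background in both ZT2 mice of 12 weeks and in no other steady mouse. At ZT10 it was 19 (0.0822%), 17 higher (0.0736%) and 2 lower (0.00865%), and at ZT18 20 (0.0865%), all of them higher. At an unadjusted p under 0.05 there were 1406, 1352 and 1306 genes (6.08%, 5.85% and 5.65%). An F test of whether the age difference varies with time called 34 genes (0.147%), and 968 at an unadjusted p under 0.05 (4.19%). Of the 34 genes 27 were likewise well above background only in the ZT2 mice of 12 weeks. Among the steady groups they passed the probe filter through that one alone and so had to vary, as did Chst9 through the ZT2 mice of 30 weeks, and their p values support nothing.

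Several genes lower at ZT2 stood high in both 12-week mice of that time and in no other steady mouse. Sly, a multicopy Y chromosome gene of sperm development, read -0.86 and -0.63 in those mice against a median of -4.46 in the 8 mice of 30 weeks and a lowest value of -5.92. Its age difference was -3.77 at ZT2, -0.25 at ZT10 and 0.88 at ZT18, and it was not called over the 3 times (limma adjusted p = 0.0956). These values belong to its brightest probe, and its 4 probes gave differences from -1.53 to 0.13 over the 3 times. The Y-linked predicted genes Gm20867, Gm20822 and Gm20877 gave -3.71, -3.03 and -2.88 at ZT2. Each of these 4 genes was well above background in 2 mice of 12 weeks and in 0 of 30 weeks, so the older level is only an upper bound and the log2 differences are not folds. They belong to families of near-identical copies, so the copy measured is uncertain. Sly and the 3 predicted genes were named after their values were seen.

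Altogether 118 genes were above background on both of these arrays and on none of the other 14 steady arrays, compared with 3 genes for the ZT2 mice of 30 weeks, 2 for the ZT18 mice of 30 weeks, 0 for the ZT10 mice of 30 weeks, 5 for the ZT10 mice of 12 weeks and 0 for the ZT18 mice of 12 weeks. Among the steady groups they passed the filter only through that one and so had to differ. They supplied 36 of the 74 lower calls, and 38 lower calls remain without them. Of the 36 genes 10 were above background on both jet-lagged ZT2 arrays of 12 weeks too. H2-Eb2, an MHC class II gene counted as 1 lower call among 11 tested genes (12 members), is one of the 36, at -2.63 and -3.07 in those mice and at most -4.11 elsewhere. The spermatid genes Prm1, Tnp2 and Odf1 and the germ cell gene Ddx4 were well above background in 0 of 8 mice of 12 weeks, and in 2, 1, 0 and 0 of 8 mice of 30 weeks. On these arrays 52.7% and 58.1% of probes were well above background, against 44.9% to 56.3% on the other 14. The 2 arrays lay on different slides and were scanned on different days, and the part of any handling step in this pattern was not tested.

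The reverse case was Chst9, a sulfotransferase gene. It read -3.06 and -2.95 in the 2 mice of ZT2 at 30 weeks and between -6.41 and -4.74 in the other 14, where it was not well above background. The measured difference was 3.33 at ZT2, 0.33 at ZT10 and 0.11 at ZT18, against a 12-week level that is only an upper bound. Of 11 tested erythroid genes (18 members) none was called. At an unadjusted p under 0.05, 4 (36.4%), all globin genes, were higher, against 5.59% of all genes. Hbb-bt read 5.49 and 6.02 in the ZT2 mice of 12 weeks and 7.18 and 6.75 in those of 30 weeks, a difference of 1.26, whereas at ZT10 and ZT18 it differed by -0.09 and -0.05. Hba-a2, Hba-a1 and Hbb-b2 gave 1.02, 1.13 and 1.08 at ZT2. In jet-lagged mice the list median was -0.32, with 6 members lower and 0 higher at an unadjusted p under 0.05. Hbb-bt, Hba-a2, Hba-a1 and Hbb-b2 differed by -0.50, -0.44, -0.45 and -0.49 there and were called lower (limma adjusted p = 0.0131, 0.0127, 0.0441 and 0.044). For these genes the test of the difference between schedules was not passed (limma adjusted p from 0.0733 to 0.133). Blood left in the tissue was not measured.

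**Figure D4:**
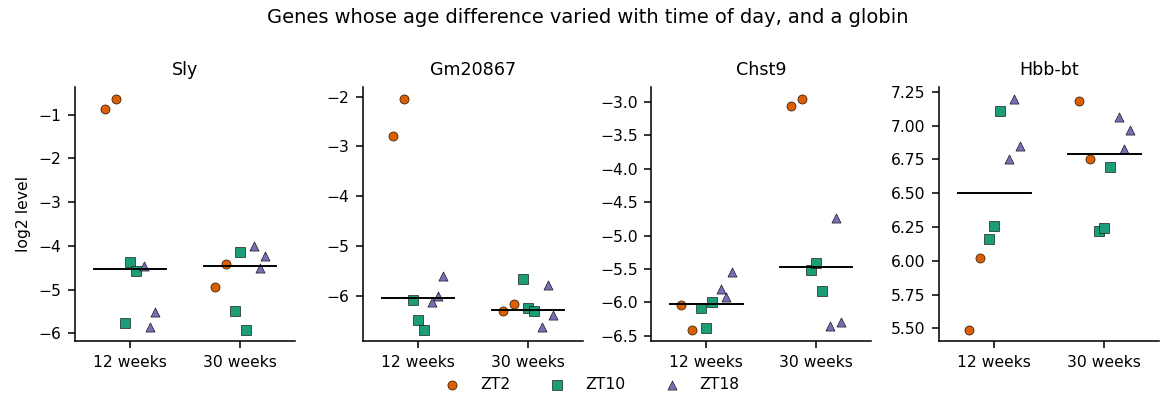
Level of Sly, Gm20867, Chst9 and Hbb-bt in each steady-schedule mouse (y axis, log2 relative to the array's 75th percentile), by age, with colour and shape for time of day and a bar at the median of 8 mice. Both ZT2 mice of 12 weeks stand high for Sly and Gm20867, and both ZT2 mice of 30 weeks stand high for Chst9.

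Markers of tissues other than liver varied between mice. Hepatocyte marker genes were high in all 16 mice (list mean 8.53 to 9.04 at 12 weeks and 8.61 to 8.97 at 30 weeks). The mean of 15 tested pancreatic acinar genes (30 members) ran from -2.93 to 0.91 at 12 weeks and from -3.13 to 2.09 at 30 weeks, highest in mouse 2 of ZT10 at 30 weeks and in mice 1 and 2 of ZT18 at 12 weeks. The mean of 27 tested muscle genes (30 members) ran from -3.91 to 0.62 and from -3.86 to 1.35, with every ZT18 mouse at the upper end. No acinar or muscle gene was called, although the medians of their differences were -0.32 and 0.33, and none of 8 tested kidney and gut genes (20 members) was called. With both levels as covariates 198 genes were called, and 185 of the 209 stayed.

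The mean of 14 tested adipocyte genes (18 members) had a median of 0.52 at 12 weeks (range -0.16 to 1.31) and 1.13 at 30 weeks (range 0.01 to 1.87). None was called, and the list shares Cidea and Cidec with the lipid droplet list. At an unadjusted p under 0.05, 3 (21.4%) were higher, against 5.59% of all genes. Adipoq, the adiponectin gene, was well above background in 5 and 6 of 8 mice, Lep in 2 and 0, and Plin1 in 1 and 2. With the adipocyte level added as a covariate, a choice made after the data were seen, 72 genes were called and 66 of the 209 stayed. Of the 24 leading genes 11 stayed (Zfp979, Irx1, Aatk, Prl2c1, Serpine2, Zfp982, Cd207, Csprs, Tceal8, Ugt1a10 and Appl1) and 13 did not, among them Hamp2 (-1.81, adjusted p = 0.0848), Cyp2b10 (1.35, 0.11) and Gnai1 (1.28, 0.107). Hamp was 0.65 with an adjusted p of 0.0521. The part of fat tissue in those results was not tested further.

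**Figure D5:**
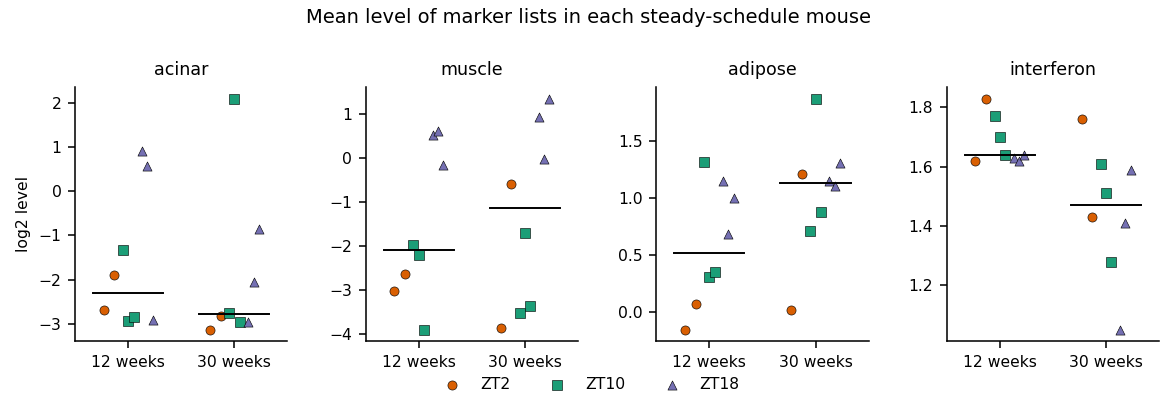
Mean level of the acinar, muscle, adipocyte and interferon-stimulated gene lists in each steady-schedule mouse (y axis, log2 relative to the array's 75th percentile), by age, with colour and shape for time of day and a bar at the median of 8 mice. Acinar genes reach 2.09 in 1 mouse of 30 weeks, muscle genes are high at ZT18, and interferon-stimulated genes reach their lowest value, 1.05, at 30 weeks.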

How the data were processed

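Liver RNA of 32 mice was hybridised to 1-colour Agilent arrays. The authors deposited scanner output, holding each spot's background-subtracted intensity (Feature Extraction 11.0.1.1 per the file headers, 9.1 per the submitters' processing notes), and a table of log2 values, normalised and batch-corrected by the authors, per the labels. Per array 43.4% to 58.1% of 55681 probes were well above background.

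Here log2 intensity minus the array's 75th percentile was used. Control and outlier spots were dropped. Probes well above background on all arrays of 1 of 12 groups were kept, the brightest per gene standing for it (23110 genes, 14082 with a symbol from RefSeq). Group means were fitted on 32 arrays with limma 3.58.1 (R 4.3.3), slide as random block (correlation 0.25), and adjusted p under 0.05 was a call. In simulated data changes of 1.5-fold were called for 69% of genes, and of 2-fold for 90%, and 5.36% of calls were unchanged genes. The simulation drew noise for genes already past the probe filter. Calls forced by that filter cannot arise in it, so the 5.36% does not cover them. For normexp (offset 50) median signals were used. Leading genes were the 12 higher and 12 lower of largest change among calls with the same sign at 3 times, plain symbols and 8 bright arrays at 1 age. Up to 4 members were named per list, called ones first. Members and lists were chosen with earlier results of these data known. Alternatives covered the block, normalization, probe filter and choice, the authors' table, marker covariates and left-out mice.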

Additional observations from a re-analysis of the deposited data

Results flagged for a closer look

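A mouse stood apart from the other 7 of its age, after removing the time-of-day means, in 11 of the 126 groups of 8 tested, where chance gives about 1 in 20. Among leading genes these were Cyp2b10 in mouse 1 of ZT18 at 12 weeks (0.44, others -1.25 to -0.65), Tceal8 in the same mouse (0.23, others 0.49 to 0.70) and Plcg1 in mouse 3 of ZT10 at 30 weeks (-0.92, others -0.38 to 0.09).

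Among list means, mouse 3 of ZT10 at 30 weeks was low for fetal liver genes (-0.33) and stellate and matrix genes (-0.24). Mouse 1 of ZT10 at 30 weeks was high for respiratory chain (0.21) and hepatocyte genes (0.26). Mouse 2 of ZT10 at 30 weeks was high for acinar genes (3.88). Mouse 1 of ZT2 at 30 weeks was high for erythroid genes (0.46). At 12 weeks, mouse 2 of ZT18 was low for female-biased genes (-0.43) and mouse 2 of ZT10 high for clock genes (0.10).

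The age difference varied over the day by 4.65 for Sly and 3.22 for Chst9, genes well above background in 2 steady mice each, which had to vary to be tested. It differed between schedules by -0.61 for Abhd18 and 0.76 for Klf16.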

How the results depend on the processing

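The count of age calls, 209, was 59 with 16 arrays and no slide block, 108 with no slide block, 128 in the authors' table with no slide block (12666 genes), 107 without the 4 muscle-rich arrays, 94 without all ZT2 mice, 119 with slide as a fixed block and 72 with 3 marker covariates. The last 2 settings were chosen after seeing the data. Leaving out 1 mouse gave 131 to 190. The share of higher calls, 64.6%, became 78.8% and 88.1% with 16 arrays (with and without the block), 77.4% with probes above background on at least 8 of 16 arrays, 50% without acinar-rich arrays and 85.1% without ZT2 mice.

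Calls at any one time of day (98) became 45 with the stricter probe filter, 29 in the authors' table with no slide block, 21 without ZT2 mice and 64 with fixed slides, and 66 to 105 on leaving out 1 mouse. Variation of the age difference over the day (34 genes) became 2 with the stricter probe filter, 0 in the authors' table with no slide block, 68 without acinar-rich arrays, 0 without ZT2 mice, 12 with a robust prior and 22 with fixed slides, and 24 to 41 on leaving out 1 mouse.

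Dependence on schedule (2 genes) gave 0 genes with no slide block, scan day as block, the replicate block, normexp, no probe filter, the median of probes, the 2-marker or 3-marker covariates, or without ZT2 mice. It gave 1 with fixed slides, 4 with quantile normalization, 10 with a robust prior, 15 without muscle-rich arrays, 51 without acinar-rich arrays and 99 in the authors' table with no slide block, and 0 to 25 on leaving out 1 mouse. The cause of these shifts was not tested.

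Whether mouse numbers pair arrays was not settled. Residuals of same-numbered mice correlated between -0.169 and 0.244, and those of steady arrays sharing a slide between -0.0193 and 0.323. These ranges are similar, so they cannot show that pairing by mouse number is absent. The replicate block had a fitted correlation of 0.269, against 0.25 for slide in the main fit. With the replicate block 207 genes were called (133 higher, 74 lower), 193 of them among the 209.

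None of the 48 called genes followed through the alternatives changed direction in any setting run. Uncalled genes reversed as follows. Cfd, itself a member of the adipocyte list, became -0.26 with 3 covariates. Without ZT2 mice Hbb-bt became -0.07, Hba-a2 -0.04, Hba-a1 -0.07, Hbb-b2 -0.08 and Sly 0.31. With 2 or 3 mice per time and 8 per age, small changes were often not detectable, and dim probes give only bounds.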
